A study of Mus musculus with 6 samples.

Results

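Fat cells release stored triglyceride through lipolysis, and 9 genes of its enzymes and its adrenergic control were examined here in mouse adipocytes: Pnpla2, Lipe, Mgll, Abhd5, G0s2, Adrb1, Adrb3, Pde3b and Aqp7. They were chosen as a pathway, by gene symbol, with earlier results of these arrays known. Of the 9 genes, 7 had a probe set of their own, with 14 probe sets in all, among 17720 genes and 43057 probe sets on the arrays. Adrb1 and Adrb3 were not analysed here, so the receptor step is represented below only by other genes of the pathway.

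The study measured 6 arrays in 3 groups of 2. Adipocytes descended from transplanted bone marrow were sorted from the fat cell fraction of gonadal fat of transplanted mice by a donor marker, which was GFP in replicate 1 and LacZ in replicate 2. They were set against white adipocytes of gonadal fat and brown adipocytes of the fat between the shoulder blades, each with replicates 1 and 2. In every group, collagenase released the cells, floating adipocytes were collected and sorted, RNA of several sorts was pooled for a sample, and it was amplified before labelling. The age, sex and strain of the mice are not given in the labels, nor is the promoter that drives either donor marker. The labels call the arrays of each group biological replicates, and the marrow-derived pair carried different donor markers. How many animals went into each pool is not given.

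Lipolysis runs in steps. The lipase ATGL, the product of Pnpla2, removes the first fatty acid from triglyceride, hormone-sensitive lipase (Lipe) the next, and monoglyceride lipase (Mgll) the last. Abhd5, also called CGI-58, activates ATGL, and G0s2 inhibits it. Noradrenaline acting on beta-adrenergic receptors raises cyclic AMP (cAMP), whose kinase phosphorylates Lipe and the droplet coat. Insulin opposes this through the cAMP phosphodiesterase encoded by Pde3b, and the channel Aqp7 lets the glycerol leave the cell.

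On the deposited scale and by the main (brightest) probe set, Pnpla2, Lipe, Abhd5, G0s2 and Pde3b stood lower on both marrow-derived arrays than on all 4 other arrays, and Mgll and Aqp7 did not. Another probe set of Mgll, given below, did. Against white adipocytes, G0s2, Lipe and Abhd5 were lower at an adjusted p under 0.05 (limma, Benjamini-Hochberg over all genes), and 0 of the 7 were higher, at an adjusted or an unadjusted p under 0.05. That is 3 of 7, where 13.6% of all genes were called lower and 12.2% higher. Against brown adipocytes, G0s2, Lipe and Pnpla2 were lower and 0 were higher by limma, adjusted or not, beside 11.7% of all genes called lower and 8.71% higher. White and brown adipocytes differed in 0 of the 7 genes by limma, with 1 (Abhd5) at an unadjusted p under 0.05, where 9.21% of all genes were called in either direction. The median log2 difference over the 7 genes was -1.30 against white and -1.64 against brown, and that over all genes was -0.07 and 0.02. The 3 lower calls against white became 5 without the GFP array. Those against brown became 0 without brown replicate 1 or replicate 2, where Lipe stood at -1.74 and -1.72 (limma adjusted p = 0.071 and 0.0815) and all genes had 355 and 239 lower calls. On arrays shifted to equal adipocyte markers, described below, the median of all genes moved to 1.34 against white and 1.26 against brown. Pnpla2 and Abhd5 moved with it to 0.17 and 0.11 against white and Abhd5 to 0.53 against brown, below that median in each case. In bulk samples, fewer adipocytes in a sort and less RNA of a gene per adipocyte cannot be told apart.

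**Figure D1:**
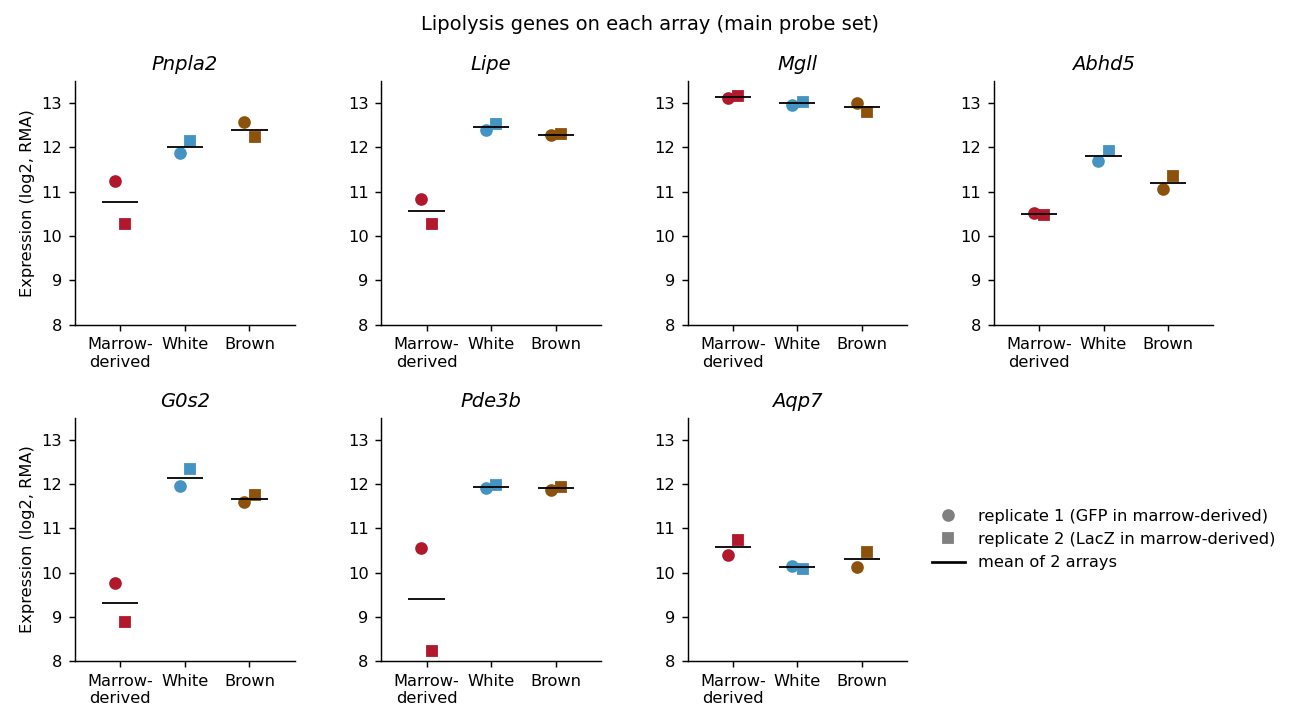
Log2 expression of the main probe set of 7 lipolysis genes on each of 6 arrays, in marrow-derived, white and brown adipocytes. Points are arrays and lines are means of 2 arrays. Pnpla2, Lipe, Abhd5, G0s2 and Pde3b lie lowest on the 2 marrow-derived arrays on the deposited scale, Mgll lies between 12.80 and 13.16 on every array, and the Pde3b points of the marrow-derived pair are 2.33 apart.

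The sequence before the start site is shown for 4 of the genes that lay lower together and for Mgll, whose main probe set did not. Each is the stretch of 250 bases upstream of the outermost start that RefSeq lists, on GRCm38.p6, written 5′ to 3′ on the gene's strand. Capitals mark matches, on either strand, to any of 8 motifs: the cAMP response element TGACGTCA, its core TGACG, the direct repeat bound by PPAR and RXR (a pair of AGGTCA units spaced by any base), the AGGTCA unit alone, the E-box CACGTG, the CCAAT box, the TATA box TATAAA and the GC box GGGCGG. The core TGACG also matches inside TGACGTCA, and AGGTCA inside the direct repeat.
Pnpla2 (chr7:141454938-141455187, + strand): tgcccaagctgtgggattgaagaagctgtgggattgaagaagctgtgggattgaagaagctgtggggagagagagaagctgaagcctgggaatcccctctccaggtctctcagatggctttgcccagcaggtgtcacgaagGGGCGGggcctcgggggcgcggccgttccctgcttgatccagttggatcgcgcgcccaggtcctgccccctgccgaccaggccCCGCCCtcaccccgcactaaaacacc
Lipe (chr7:25395988-25396237, - strand): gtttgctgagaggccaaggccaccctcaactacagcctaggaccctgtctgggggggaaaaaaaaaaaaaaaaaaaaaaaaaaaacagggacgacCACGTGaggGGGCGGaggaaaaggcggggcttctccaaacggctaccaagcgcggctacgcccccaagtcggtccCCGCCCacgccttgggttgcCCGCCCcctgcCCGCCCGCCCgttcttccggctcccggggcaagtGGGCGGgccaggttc
Abhd5 (chr9:122351366-122351615, + strand): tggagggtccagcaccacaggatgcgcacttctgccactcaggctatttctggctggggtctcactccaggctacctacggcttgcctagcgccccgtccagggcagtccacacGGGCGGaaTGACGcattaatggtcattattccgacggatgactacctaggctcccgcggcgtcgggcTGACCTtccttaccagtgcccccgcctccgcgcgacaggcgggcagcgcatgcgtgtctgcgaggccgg
G0s2 (chr1:193273189-193273438, - strand): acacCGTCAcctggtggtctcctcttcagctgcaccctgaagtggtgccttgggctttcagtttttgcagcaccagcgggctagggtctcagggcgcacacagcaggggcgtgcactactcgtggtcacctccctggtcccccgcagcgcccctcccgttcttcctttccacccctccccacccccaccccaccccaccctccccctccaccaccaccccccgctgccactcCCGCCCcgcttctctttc
Mgll (chr6:88724162-88724411, + strand): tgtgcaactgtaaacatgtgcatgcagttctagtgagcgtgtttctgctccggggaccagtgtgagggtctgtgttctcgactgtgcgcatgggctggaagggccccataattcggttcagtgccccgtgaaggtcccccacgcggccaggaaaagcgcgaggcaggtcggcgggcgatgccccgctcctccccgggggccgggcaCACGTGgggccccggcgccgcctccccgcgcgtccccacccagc
Among all 32851 windows of this length in the RefSeq promoter table, 32.7% held GGGCGG, 17.8% TGACG, 14.0% AGGTCA and 6.02% CACGTG. The GC box was in the windows of Pnpla2, Lipe, Abhd5 and G0s2. TGACG occurred at -128 to -124 of Abhd5 and, on the other strand, at -246 to -242 of G0s2, counted from the start site. AGGTCA matched at -69 to -64 of Abhd5, and CACGTG at -155 to -150 of Lipe and at -44 to -39 of Mgll. No window of these genes held TGACGTCA (1.55% of all windows), the direct repeat (0.0335%), CCAAT (33.8%) or TATAAA (12.4%). A match of letters describes the sequence only. Which start site these adipocytes use was not tested, so a window may lie away from it.

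Pnpla2, the lipase of the first step, was 11.24 and 10.28 on the GFP and LacZ arrays, 11.87 and 12.15 on the white arrays and 12.58 and 12.23 on the brown arrays, as log2 levels. On the deposited scale the marrow-derived arrays were below all others, and the white arrays were below the brown arrays. The log2 difference was -1.64 ± 0.35 against brown (SE, 3.12-fold lower, limma adjusted p = 0.0321) and -1.25 ± 0.35 against white (2.37-fold, limma adjusted p = 0.0557). Another probe set of Pnpla2 was 6.11 and 6.12 on the marrow-derived arrays, 8.26 and 8.92 on the white arrays and 8.71 and 9.02 on the brown arrays. In a fit of every probe set, which called 22.2% of probe sets against white and 17.0% against brown, it was called in both comparisons, at -2.48 ± 0.27 against white (limma adjusted p = 0.00488) and -2.76 ± 0.27 against brown (limma adjusted p = 0.00446). The call for Pnpla2 against white therefore depended on the probe set.

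Lipe, the lipase of the second step, was 10.83 and 10.28 on the marrow-derived arrays, 12.39 and 12.53 on the white arrays and 12.28 and 12.29 on the brown arrays. The marrow-derived pair lay apart from the other 4 arrays, which span a narrow range. Lipe was 3.74-fold lower than in white (-1.90 ± 0.23, limma adjusted p = 0.00661) and 3.32-fold lower than in brown (-1.73 ± 0.23, limma adjusted p = 0.00918). The other probe set of Lipe lay between 2.90 and 3.56 on all arrays, near the low end of the scale, and was not called.

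Mgll, the lipase of the last step, was 13.13 and 13.16 on the marrow-derived arrays, 12.97 and 13.03 on the white arrays and 13.01 and 12.80 on the brown arrays. These values are near the top of the scale, which ends at 13.97, so a difference there may be understated. Differences were 0.14 ± 0.16 against white (limma adjusted p = 0.573) and 0.24 ± 0.16 against brown (limma adjusted p = 0.343). The 4 probe sets of Mgll did not share a direction against white. The other 3 were at 0.23 ± 0.17, -0.64 ± 0.31 and -0.74 ± 0.24, and the first of these has a suffix that marks probes shared by transcripts of several genes. The last was 10.05 and 10.30 on the marrow-derived arrays, 10.74 and 11.10 on the white arrays and 10.45 and 10.83 on the brown arrays. That probe set was lower on both marrow-derived arrays than on all others, at -0.46 ± 0.24 against brown. None of the 4 probe sets was called in any comparison, white minus brown included, where 7.37% of probe sets were called.

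**Figure D2:**
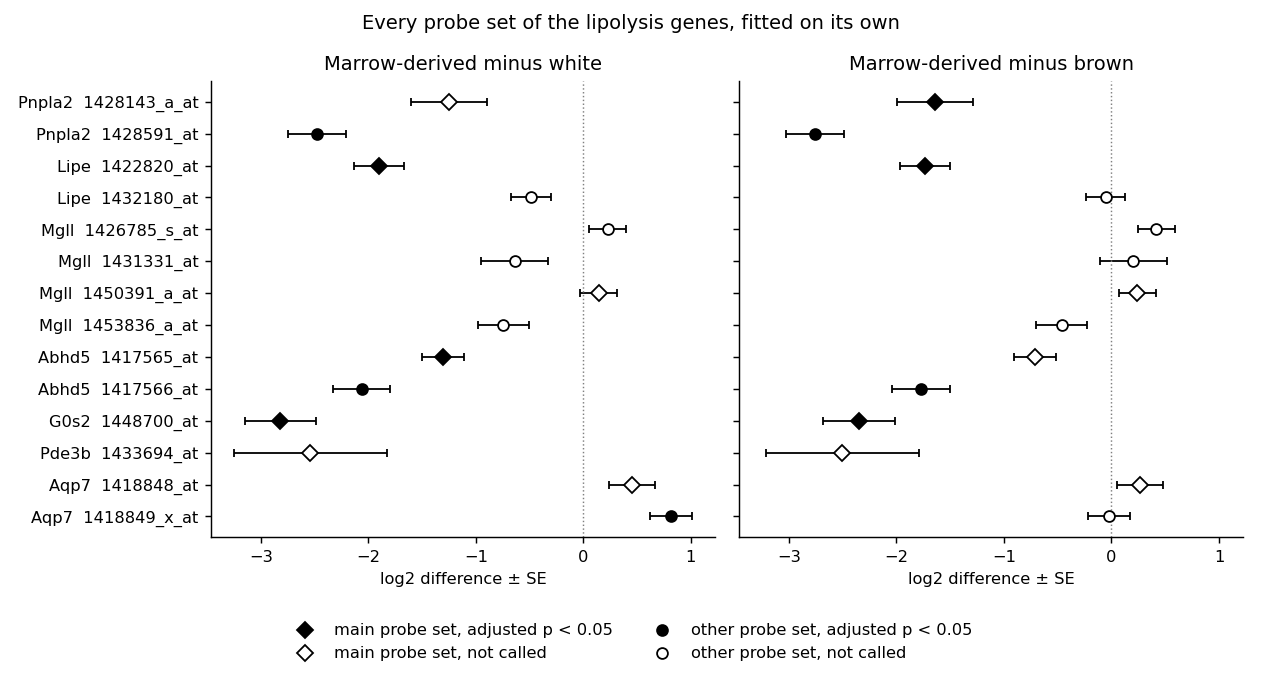
Log2 difference ± SE of each of 14 probe sets of the 7 genes, marrow-derived minus white (left) and marrow-derived minus brown (right), from limma fitted on every probe set. Diamonds are the main probe sets, circles the others, and filled symbols have an adjusted p under 0.05. On the deposited scale both probe sets of Pnpla2 and of Abhd5 lie left of 0 in both panels, and the 4 probe sets of Mgll lie on both sides.

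Abhd5, the activator of ATGL, was 10.52 and 10.48 on the marrow-derived arrays, 11.70 and 11.91 on the white arrays and 11.07 and 11.35 on the brown arrays. On the deposited scale the 3 groups did not overlap, with marrow-derived lowest and white highest. Abhd5 was 2.47-fold lower than in white (-1.30 ± 0.18, limma adjusted p = 0.00908) and was -0.71 ± 0.18 against brown (limma adjusted p = 0.0508). White minus brown was 0.59 ± 0.18 (limma adjusted p = 0.116). Its other probe set was called against both, at -2.06 ± 0.27 against white (limma adjusted p = 0.00704) and -1.77 ± 0.27 against brown (limma adjusted p = 0.0132). Without white replicate 2 the main probe set stood at -1.20 against white (limma adjusted p = 0.0518).

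G0s2, the inhibitor of ATGL, had the largest difference from white of the 7 genes with all 6 arrays, and Pde3b had it without the GFP array (-3.70, against -3.26 for G0s2). G0s2 was 9.77 and 8.88 on the marrow-derived arrays, 11.95 and 12.34 on the white arrays and 11.59 and 11.76 on the brown arrays. All other arrays stood above the higher marrow-derived array. G0s2 was 7.05-fold lower than in white (-2.82 ± 0.33, limma adjusted p = 0.00659) and 5.10-fold lower than in brown (-2.35 ± 0.33, limma adjusted p = 0.0113).

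Pde3b, which breaks down cAMP when insulin acts, had log2 levels of 10.57 with the GFP marker and 8.24 with LacZ, 11.91 and 11.98 on the white arrays and 11.88 and 11.93 on the brown arrays. The 4 white and brown arrays lay within a narrow band, and the marrow-derived pair differed by 2.33, more than for 97.4% of all genes in that pair. The difference was -2.54 ± 0.73 against white (limma adjusted p = 0.0569) and -2.50 ± 0.73 against brown (limma adjusted p = 0.0678), so neither passed. Without the GFP array it was -3.70 against white and -3.67 against brown (limma adjusted p = 0.00393 and 0.00347). Without the LacZ array it was -1.37 and -1.34 (limma adjusted p = 0.0184 and 0.0199). In these fits the remaining marrow-derived array is assumed to vary as the other groups do.

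Aqp7, the glycerol channel, was 10.41 and 10.74 on the marrow-derived arrays, 10.15 and 10.09 on the white arrays and 10.14 and 10.47 on the brown arrays. Marrow-derived and brown arrays overlapped, and the white arrays were below the marrow-derived arrays. The difference from white was 0.45 ± 0.21 (limma adjusted p = 0.176) and from brown 0.27 ± 0.21 (limma adjusted p = 0.401). The other probe set of Aqp7 was 10.47 and 10.48 on the marrow-derived arrays, 9.84 and 9.47 on the white arrays and 10.54 and 10.45 on the brown arrays. It was 0.82 ± 0.20 against white (1.76-fold higher, limma adjusted p = 0.0363), -0.02 ± 0.20 against brown (limma adjusted p = 0.951) and -0.84 ± 0.20 for white minus brown (limma adjusted p = 0.0658). The suffix of that probe set marks probes that may match other transcripts. Aqp7 is also known in capillary endothelium of fat, and the endothelial list given below was also higher in marrow-derived and in brown than in white. The part of those markers in it was not tested.

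White and brown adipocytes were close for most of the pathway by size of difference. The standard errors pool the spread of all 3 groups, the marrow-derived pair included. For Pde3b the SD was 1.65 in marrow-derived, 0.05 in white and 0.04 in brown. The log2 differences, white minus brown, were 0.17 ± 0.23 for Lipe, 0.10 ± 0.16 for Mgll, 0.47 ± 0.33 for G0s2, 0.03 ± 0.73 for Pde3b and -0.39 ± 0.35 for Pnpla2, with limma adjusted p from 0.116 (Abhd5) to 0.985 (Pde3b). The groups did not overlap for Lipe, Abhd5 and G0s2 with white higher and for Pnpla2 with brown higher, while 32.4% of all genes did not overlap with white higher and 29.7% with brown higher. Against white, all 7 genes had groups that did not overlap, 5 lower and 2 higher in marrow-derived, beside 35.8% and 28.5% of all genes. Against brown 5 did so lower and 1, Mgll, higher, beside 32.0% and 33.0%.

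The genes most like each of these over the 6 arrays were found by the root mean square difference of log2 values, after each gene was centred on its own mean. For Lipe the nearest were Mettl7a1 (0.07), Mettl7a2 (0.07) and D130020L05Rik (0.09). For Pde3b the nearest was Pcx, pyruvate carboxylase (0.12), followed by the histamine-degrading enzyme Hnmt (0.13) and the aldehyde dehydrogenase Aldh1a7 (0.14). G0s2 was nearest to Gm15417 (0.14), the insulin receptor substrate gene Irs3 (0.16) and 1700056E22Rik (0.16). Pnpla2 was nearest to Pex7, an import receptor of peroxisomes (0.11), then to Lipt2 (0.12) and Cds1 (0.13). Abhd5 was nearest to Snupn (0.05), Cdc45 (0.08) and Antkmt (0.08), Mgll to Eif3a (0.02), Pinlyp (0.03) and Scaf11 (0.03), and Aqp7 to Brwd3 (0.03), Dimt1 (0.05) and Ppp1r11 (0.05). Within the set, Pnpla2 and Lipe differed by 0.33, which placed Lipe at rank 258 of all genes by likeness to Pnpla2. Pde3b ranked 217 by likeness to G0s2 (0.46), and these ranks describe 6 arrays in 3 groups.

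The marrow-derived arrays also had a lower mean level of adipocyte markers. Against white, endothelial markers and some fibroblast and smooth muscle markers were higher. The part of any of these in the results above was not tested. Over all genes 13.6% were called lower and 12.2% higher than in white, and 11.7% lower and 8.71% higher than in brown. Of 12 measured adipocyte identity genes 5 were lower and 0 higher than in white, with a median log2 difference of -1.35, and 2 were lower than in brown, with a median of -0.93. The 2 lower than in brown are near the share over all genes, though all 12 differences were below 0. The markers did not differ by a common amount. Their differences ran from -3.06 to -0.03 against white and from -3.51 to -0.16 against brown. As over all genes, fewer were called lower than in white when any white or brown array was left out. Adiponectin (Adipoq) itself was 12.70 and 11.86 on the marrow-derived arrays and at least 13.01 on the other arrays. Adipoq was not called against white (limma adjusted p = 0.072) or brown (limma adjusted p = 0.123). The list averaged 11.87 for GFP and 10.91 for LacZ, 12.72 and 12.89 on the white arrays and 12.57 and 12.69 on the brown arrays. All 12 endothelial markers were higher than in white (mean level 11.48 and 12.03 in marrow-derived, 8.34 and 7.33 in white), and brown arrays stood at 11.06 and 10.67. Pecam1, an endothelial adhesion molecule, was 10.98 and 11.91 on the marrow-derived arrays, against 7.80 and 6.66 on the white arrays. Fibroblast and progenitor markers were higher than in white in 3 of 10 genes and smooth muscle and pericyte markers in 5 of 8, with 0 lower in either by limma. Against brown 5 of 10 and 4 of 8 were higher, also with 0 lower. The median of the fibroblast list was 0.60 against white, where groups overlapped for 6 of the 10 genes, and 2.42 against brown. The macrophage list, of 13 genes, had 0 called against white by limma, with 12 of 13 differences below 0 and a median of -0.45. It averaged 11.17 and 8.79 in marrow-derived, 11.13 and 9.77 in white and 8.72 and 8.07 in brown. Pde3b and the adipocyte identity list were also lower on the LacZ array than on the GFP array. On the white arrays Pde3b was 11.91 and 11.98, and on the brown arrays 11.88 and 11.93. The part of either list in the level of Pde3b was not tested. The pan-leukocyte gene Ptprc was 10.87 and 7.62 on the GFP and LacZ arrays. Fibroblast and progenitor markers had group means of 9.89 in marrow-derived, 8.60 in white and 7.35 in brown. Smooth muscle and pericyte markers had group means of 9.81 in marrow-derived, 8.12 in white and 8.34 in brown. Of the brown adipocyte list, 10 of 12 were lower than in brown and Ucp1 was 7.68 and 4.93 on the marrow-derived arrays, against 13.58 and 13.53 on the brown arrays.

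**Figure D3:**
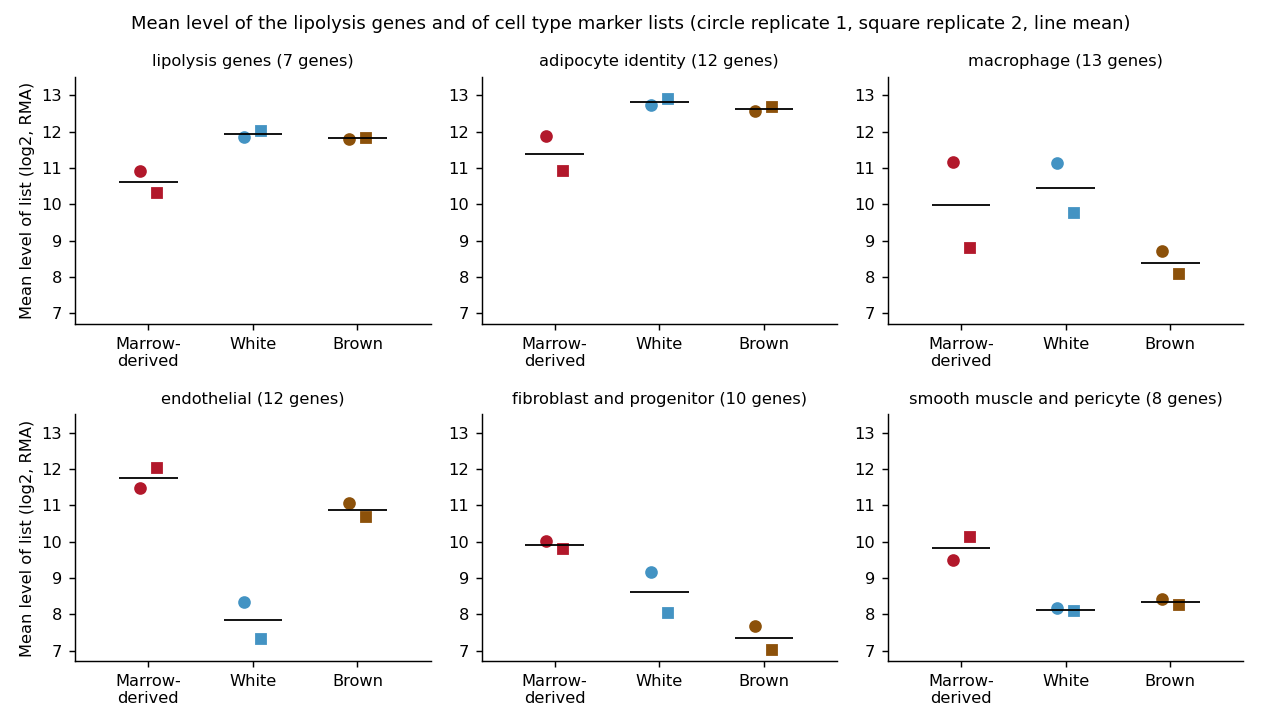
Mean log2 level of the 7 lipolysis genes and of 5 cell type marker lists on each of 6 arrays, in marrow-derived, white and brown adipocytes. Circles are replicate 1 (GFP in marrow-derived), squares replicate 2 (LacZ in marrow-derived) and lines means. The adipocyte identity list is lowest on the LacZ array at 10.91, and the endothelial list of the marrow-derived arrays, at 11.48 and 12.03, stands above the white arrays.

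The lipolysis genes were then set against the adipocyte markers by shifting each array to an equal mean of the 12 adipocyte identity genes, none of which is in the set. The shift is the same for every gene of an array, so it changes signs without changing the order of the differences. It moved the median of all genes to 1.34 against white and 1.26 against brown. On that scale G0s2 was lower than in white, at -1.40 (limma adjusted p = 0.0359), and stood at -1.11 against brown (limma adjusted p = 0.0931), where it no longer passed. Pde3b stood at -1.12 against white and -1.27 against brown (limma adjusted p = 0.0818 and 0.06). Lipe stood at -0.49 against white and -0.49 against brown, with limma adjusted p of 0.452 and 0.447. Pnpla2 stood at 0.17 and -0.40 and Abhd5 at 0.11 and 0.53, none of them called. Mgll, at 1.56 against white and 1.48 against brown, and Aqp7, at 1.87 and 1.51, were called higher on that scale (limma adjusted p from 0.00604 to 0.0312), close to the median of all genes. Of all 17720 genes, 9624 were called higher and 381 lower than in white on that scale. Against brown 8078 were called higher and 389 lower, so the calls of Mgll and Aqp7 do not set them apart. This scale counts any change shared by the adipocyte list as a difference in adipocyte RNA, which these arrays cannot show.

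Genes that act around these steps were counted in 4 lists, whose counts are to be read against all genes, of which 13.6% were lower and 12.2% higher than in white and 11.7% lower and 8.71% higher than in brown. The calls over all genes fell as well when an array was left out. The 2409 genes lower than in white became 850 without white replicate 2, 1577 without white replicate 1 and 1372 with a single brown array. The 2068 lower than in brown became 355 and 239 without brown replicate 1 or 2. The cAMP and adrenergic list had 32 of 39 genes measured. Against white, 4 were higher and 8 lower, with a median of -0.04, and against brown 3 were higher and 6 lower, with a median of 0.08. The higher counts are near the share over all genes. The adenylyl cyclase gene Adcy5 was 11.5-fold lower than in white (-3.52 ± 0.59, limma adjusted p = 0.0134), with 8.25 and 6.61 on the marrow-derived arrays and 10.66 and 11.25 on the white arrays. Adcy4, another adenylyl cyclase, was 16.3-fold higher than in white (4.03 ± 0.41, limma adjusted p = 0.00504), and white was also lower than brown for it (-2.91 ± 0.41, limma adjusted p = 0.0187). Its levels were 11.01 and 11.84 in marrow-derived, 7.87 and 6.92 in white and 10.32 and 10.29 in brown, the order of the endothelial list. Subunits of the cAMP-dependent kinase went in both directions. Prkar2b, the main regulatory subunit in fat, was 3.02-fold lower than in white (-1.59 ± 0.31, limma adjusted p = 0.0195) and 3.67-fold lower than in brown (-1.88 ± 0.31, limma adjusted p = 0.0165). Prkar1b, another regulatory subunit, was higher than in white (2.57 ± 0.38) and in brown (2.02 ± 0.38). The cAMP phosphodiesterases also split, with Pde4b higher than in white (2.86 ± 0.51) and Pde4d lower than in brown (-2.47 ± 0.19), as was the cyclase Adcy3 (-1.81 ± 0.33). Pde4b had group means of 11.85 in marrow-derived, 8.99 in white and 10.82 in brown, again the order of the endothelial list. Between white and brown, Pde7a (2.28 ± 0.23) and the receptor-desensitizing arrestin Arrb1 (0.97 ± 0.20) were higher in white and Pde4d (-1.35 ± 0.19) was lower. The 2 adrenergic receptor genes with a value, Adra1b and Adra2c, named here after their values were seen, lay between 4.45 and 5.70 on all arrays and were not called. Without white replicate 2 the counts against white became 3 higher and 1 lower, and without white replicate 1 they became 4 and 4. Without either brown array alone, those against brown became 0 and 1.

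The list of receptors that restrain or add to lipolysis, which also holds the kinase Prkg1, was mostly lower than in white. Of 15 measured genes 10 were lower and 3 higher, with a median of -1.57, beside 13.6% and 12.2% of all genes. The 3 higher were Npy1r (3.45 ± 0.31), Npr1 (3.43 ± 0.50) and Prkg1 (3.40 ± 0.32). Against brown 3 were lower and 2 higher, with a median of -0.54, beside 11.7% and 8.71% of all genes. Against brown the shares called were closer to those over all genes. Among receptors that raise cAMP, the corticotropin receptor Mc2r was 20.2-fold lower than in white (-4.34 ± 0.33, limma adjusted p = 0.00353) and 3.33-fold lower than in brown (-1.74 ± 0.33, limma adjusted p = 0.0229), and the thyrotropin receptor Tshr 20.3-fold lower than in white (-4.34 ± 0.88, limma adjusted p = 0.0224), while the incretin receptor Gipr was not called (0.19 ± 0.19 against white, limma adjusted p = 0.509). Gipr lay between 2.66 and 3.19 on all arrays, near the low end of the scale, where a difference could be missed. Mc2r was 6.75 and 5.99 in marrow-derived, 10.60 and 10.82 in white and 7.84 and 8.38 in brown, so the 3 groups stood apart. Among receptors that restrain lipolysis, lower calls included the succinate receptor Sucnr1 (-3.52 ± 0.32 against white), the fatty acid receptor Ffar4 (-3.65 ± 0.91 against white), the prostaglandin receptor Ptger3 (-3.38 ± 0.63 against brown) and the niacin receptor Hcar2 (-2.97 ± 0.47 against brown). Npy1r, a receptor of neuropeptide Y that also restrains lipolysis, went the other way, with 5.96 and 6.86 in marrow-derived against 2.88 to 3.0 on all other arrays (3.48 ± 0.31 against brown, limma adjusted p = 0.00415). Between white and brown, Mc2r (2.60 ± 0.33) and Sucnr1 (2.43 ± 0.32) were higher in white, and the natriuretic peptide receptor Npr1 (-2.43 ± 0.50) and the cGMP-dependent kinase Prkg1 (-1.93 ± 0.32) were lower. Npr1 had group means of 7.79 in marrow-derived, 4.35 in white and 6.79 in brown, and Prkg1 of 9.36, 5.95 and 7.88. That is the order of the endothelial list, whose part in them was not tested. The 10 lower calls against white became 4 without white replicate 2 and 5 without white replicate 1 or either brown array. Against brown the 3 lower calls became 7 without the GFP array and 0 without either brown array.

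Among 20 measured droplet partners and other lipases, 9 were lower and 0 higher than in white, with a median of -0.83, beside 13.6% and 12.2% of all genes. Against brown 6 were lower and 0 higher, with a median of -0.83, beside 11.7% and 8.71% of all genes. Plin4, Cidec, Fabp4 and Lpl are also in the adipocyte identity list, so the 2 lists are not separate. Plin4 and Cidec count among the lower calls against white in both. Plin5, a droplet coat protein of oxidative tissues, was 6.30 and 3.70 in marrow-derived, 7.91 and 8.14 in white and 11.67 and 11.63 in brown. It was -3.03 ± 0.81 against white (limma adjusted p = 0.0475) and -6.65 ± 0.81 against brown (limma adjusted p = 0.00793). Pnpla3, a relative of ATGL regulated by feeding, was 20.7-fold lower than in white (-4.37 ± 0.64) and 25.2-fold lower than in brown (-4.66 ± 0.64). The coat protein Plin4 (-2.55 ± 0.54) and the carboxylesterase Ces1f (-2.88 ± 0.79) were lower than in white, and the phospholipase Pnpla8 (-1.58 ± 0.16) and the monoglyceride lipase Abhd6 (-1.54 ± 0.24) lower than in brown. In the short list of glycerol and fatty acid transport, 1 of 5 genes was lower than in white, the aquaporin Aqp11 (-1.30 ± 0.26, limma adjusted p = 0.0205), and 0 were called against brown by limma. The 9 lower droplet genes became 3 without white replicate 2 and 4 without white replicate 1 or either brown array. Against brown the 6 became 11 without the GFP array and 0 without either brown array.

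**Figure D4:**
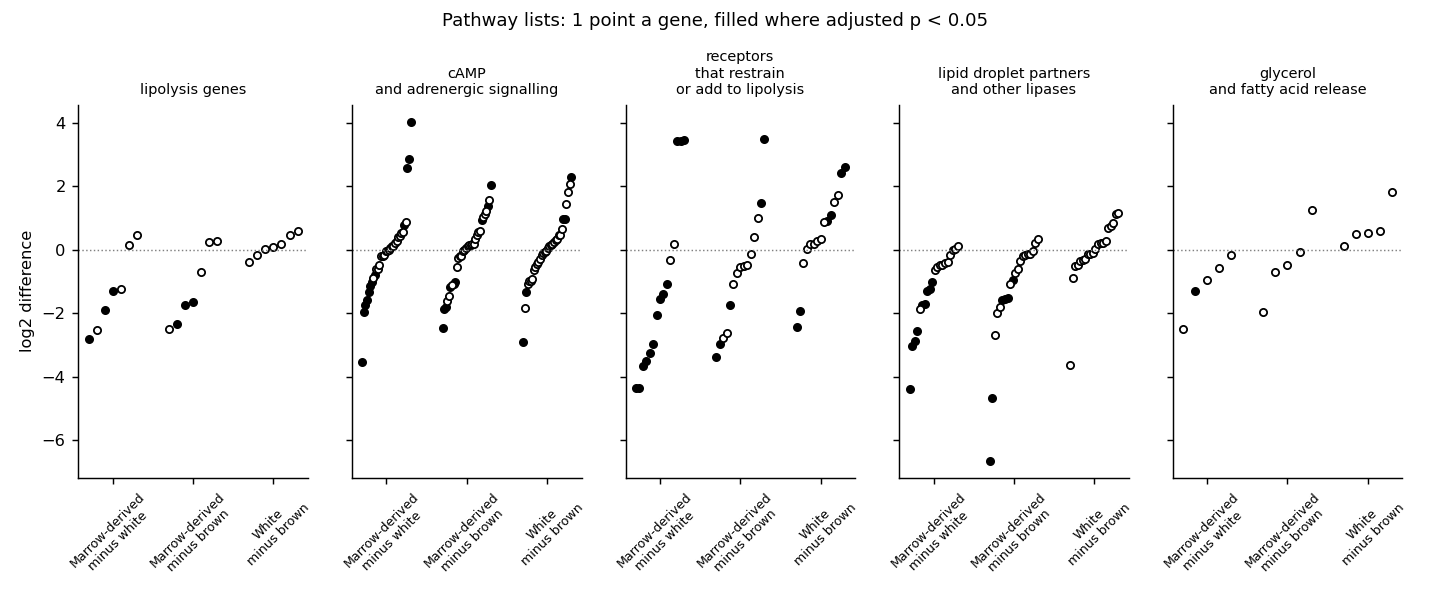
Log2 differences of the 7 lipolysis genes and of the measured genes of 4 pathway lists in 3 comparisons, 1 point per gene in order of size, filled where the adjusted p of limma is under 0.05. Lower calls outnumber higher calls against white in the receptor list (10 and 3) and in the droplet list (9 and 0), on the deposited scale. Over all genes 13.6% were lower and 12.2% higher than in white.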

How the data were processed

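Each of 6 sorted adipocyte samples gave RNA for 1 oligonucleotide array. The deposited values are log2 expression per probe set. Per the submitters' processing notes, RMA (Robust Multi-array Average) and Partek were used, and no version is given. The array medians of the deposited values run from 5.46 to 5.72. The log base was read from the values, which run from 1.67 to 13.97, and RMA gives no detection calls. The platform annotation gives 1 symbol for 33565 of 43057 probe sets. Another 857 have several symbols and named no gene, and 8635 were unnamed here.

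Each of 17720 genes was represented by its brightest probe set, by the mean of the 6 arrays. Group means were fitted on all 6 arrays with limma 3.58.1 in R 4.3.3 (3 residual and 2.35 prior degrees of freedom), and two-sided p-values were adjusted by Benjamini-Hochberg over the whole table, with a threshold of 0.05. A value after ± is limma's standard error with n = 2 arrays per group, and the number of arrays limits the precision. From each pathway list, up to 4 called genes per comparison were named by size of difference, with no overlap of groups, and also Prkar2b, Adipoq, Ucp1, Ptprc and Pecam1. The 3 genes nearest to each lipolysis gene were named too. The genes and lists were chosen with earlier results of these data known. A total of 15 alternatives was tried, 6 of them with 1 array left out, and every probe set was fitted as an alternative added after seeing the data. Promoter sequences are from RefSeq (GRCm38.p6), matched for 6 of the 7 genes.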

Additional observations from a re-analysis of the deposited data

How the results depend on the processing

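With 2 arrays per group, where an array was left out the lone array was assumed to vary like the other groups. Over the 7 genes, 3 comparisons and 15 alternatives, 259 of 315 values kept direction and side of the threshold, 24 passed where they had not, 20 no longer passed and 12 turned. The count of genes lower than in white (3) ranged from 2 to 5 with 1 array left out, and was 5 after centring arrays on their median, 1 after scaling on adipocyte identity genes, 5 with genes averaging 5 or more and 0 in an unmoderated linear model. The count of genes higher than in white (0) was 2 after adipocyte scaling, 1 with the mean of all probe sets and 1 with the probe set of largest range (Aqp7 in both). The count lower than in brown (3) ranged from 0 to 4 with 1 array left out, and was 5 after median centring, 0 after adipocyte scaling and 0 in the unmoderated model. The count higher than in brown (0) was 2 after adipocyte scaling. Over all genes that scaling called 9624 higher and 381 lower than in white, and 8078 higher and 389 lower than in brown. The unmoderated model called 301 genes lower than in white and 665 lower than in brown over all genes. Of the 12017 genes averaging 5 or more, which include all 7, 38.3% were called against white and 29.6% against brown. Those were 2201 higher and 2402 lower than in white, and 1587 higher and 1972 lower than in brown. Median centring moved the median of all genes to -0.24 against white and -0.17 against brown, and the calls to 1687 higher and 2922 lower (2170 and 2409 on the deposited scale) and to 1006 and 2523 (1543 and 2068). The cause of these changes was not tested.

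Values that turned, each uncalled, were these. Adipocyte scaling, which shifts all genes of an array alike and moved their median to 1.34 against white and 1.26 against brown, left positive signs, below that median, for Pnpla2 (0.17) and Abhd5 (0.11) against white, Abhd5 against brown (0.53). It turned Lipe (-0.0077), Mgll (-0.0822) and Pde3b (-0.14) for white minus brown. Mgll against white turned after median centring (-0.0238), with the mean of all probe sets (-0.25), with the probe set of largest range (-0.64) and for another of its probe sets (-0.74), which also turned against brown (-0.46). Aqp7 turned against brown with its other probe set (-0.0224). For white minus brown, Mgll ranged from -0.0062 (without brown replicate 2) to 0.1982 and Pde3b from -0.0008 (without white replicate 2) to 0.0696 with 1 array left out. The labels do not say whether arrays with the same replicate number were paired. Deviations of same-numbered arrays correlated at 0.205 for marrow-derived and white, -0.004 for marrow-derived and brown and 0.277 for white and brown. These correlations do not settle it. With the replicate block, 3 genes were lower than in white and 3 lower than in brown, 0 were higher in either and 0 were called between white and brown.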
